A study of Mus musculus with 15 samples.

Results

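Interferon-response genes were examined as a module in mouse liver: 36 genes listed by symbol, which cover signalling and transcription factors, the ISG15 system, antiviral effectors and sensors, interferon-inducible GTPases, the MHC class I loading complex and chemokines. Probe sets were matched to these symbols by their annotation. Of the 36 genes, 33 had 1 or more probe sets annotated to that gene alone (46 probe sets) and were tested among 12393 genes. Isg15 had only a probe set shared with Gm9706, and Ifi44 and Xaf1 were matched to none, so these 3 were not tested.

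The series profiled liver RNA of adult male mice, 3 months old, on 15 expression arrays in 5 groups of 3 biological replicates. Transgenic mice carried an inducible, hepatocyte-specific transgene for human alpha1-antitrypsin, a secreted protease inhibitor, either in its wild-type form (M) or as the mutant Z form, which is known to be retained in the endoplasmic reticulum of hepatocytes. In the groups called Z-on and M-on here (titled Z4 and M4) the transgene was expressed and no doxycycline was given. In Z-off and M-off (titled Z1 and M1) doxycycline at 40 µg/mL in the drinking water kept it off from conception until death. Nontransgenic littermates (titled WT) formed the fifth group. Because every off mouse received doxycycline and no littermate did, transgene expression and withdrawal of the drug cannot be told apart in the on-off comparisons, and neither can the drug and the silent transgene in the comparisons of off mice with littermates. Whole liver was used, so fewer cells of a type and less RNA per cell cannot be told apart. The p-values measure the spread between these 15 samples only.

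Interferons are secreted cytokines that act through paired receptors and Janus kinases on transcription factors of the STAT and IRF families. Type I interferons lead to binding of the STAT2 and IRF9 complex to the interferon-stimulated response element (ISRE), and interferon-gamma leads to binding of STAT dimers to the gamma-activated site (GAS). The induced genes encode proteins that block viral replication, restrict intracellular pathogens, or load peptides onto MHC class I. In liver both hepatocytes and resident macrophages (Kupffer cells) respond.

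The promoters of several members hold these elements, and a selection is shown. Of the genes shown, Igtp and Ifit1 passed the threshold described below only in alternative fits. The ISRE core was searched as GAAANNGAAA on both strands and the GAS as TTCNNNGAA, which reads the same on both strands. The windows searched were the 250 bases before start sites of the RefSeq table (GRCm38.p6), and they did not cover every gene. At least 1 ISRE core was found for 14 of the 31 members with a window (45.2%), against 3.46% of the 27025 genes searched. A GAS was found for 7 members (22.6%), against 8.13% of genes, and both in 1 window for 3 members (9.68%), against 0.4% of genes. Usp18, Mx1, Mx2, Iigp1 and Tap2 had no window among those searched, so their promoters were not examined. In the stretches below, written 5′ to 3′ on the gene's strand, capitals mark every matched base. Bst2 (chr8:71537567-71537628, minus strand) has a GAS and 2 ISRE cores, of which the first shares bases with the GAS and with the second core. Irf1 (chr11:53769904-53769952, plus strand) has a GAS, and Irf8 (chr8:120736167-120736233, plus strand) has 2. Irf2 (chr8:46739495-46739549, plus strand) and Igtp (chr11:58199491-58199551, plus strand) have 1 of each. Ifit1 (chr19:34640765-34640833, plus strand) has 2 ISRE cores, and B2m (chr2:122147528-122147577, plus strand) has 1. Mndal and Irgm1 (ISRE cores) and Eif2ak2 (GAS) also have matches, passed the threshold in some comparison, and are not shown. No match was found for 13 members: Tapbp, Tap1, Ifi47, Lgals3bp, Irf7, Irf9, Ifi35, Ifih1, Oasl2, Ifitm3, Cxcl9, Ifi44 and Xaf1. A match of letters describes the window and shows no binding.
Bst2: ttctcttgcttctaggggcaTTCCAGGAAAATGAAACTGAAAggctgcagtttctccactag
Irf1: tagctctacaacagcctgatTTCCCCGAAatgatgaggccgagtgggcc
Irf8: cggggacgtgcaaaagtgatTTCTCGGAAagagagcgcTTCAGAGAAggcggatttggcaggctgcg
Irf2: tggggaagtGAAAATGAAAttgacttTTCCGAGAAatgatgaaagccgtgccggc
Igtp: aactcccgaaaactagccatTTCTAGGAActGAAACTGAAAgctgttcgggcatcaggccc
Ifit1: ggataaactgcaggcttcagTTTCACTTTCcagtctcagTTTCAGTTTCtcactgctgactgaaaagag
B2m: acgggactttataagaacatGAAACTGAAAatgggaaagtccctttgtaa

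Signals are the deposited values of 1 probe set per gene, on a linear scale that is not comparable between genes. Changes are differences of log2(signal + 16) with their standard error (SE), and a gene was called at an adjusted p under 0.05 in limma, Benjamini-Hochberg over all genes. The arrays differed beyond the members: the median signal lay between 43.9 and 54.9 on the 6 on arrays, between 30.4 and 32.2 on the 6 off arrays, and between 42.3 and 44.9 in littermates. The median change of all genes was 0.25 in Z-on minus Z-off and 0.29 in M-on minus M-off, and it fell to 0.05 and 0.10 after quantile normalization, which gives every array the same distribution of signals. That scaling moved the share of called genes that were higher from 80.8% to 60.4% in the Z line and from 75.4% to 60.6% in the M line. It moved that share from 61.4% to 50.7% for Z-on against littermates, from 16.8% to 37.5% for Z-off against them, and from 15.1% to 34.7% for M-off. Changes given "after quantile normalization" use it. The 18S ribosomal RNA control read 1830 to 2680.7 on the on arrays and 75 to 568.1 on all others. The median of the poly-A control probe sets was 2 to 5.2 on the on arrays, 42.6 to 57.9 on the off arrays and 33.8 to 37.6 in littermates. In every comparison of on arrays with off arrays or littermates, these control readings differed along with the transgene, and the part of sample handling was not tested. Xist, an X-linked transcript of females, read 1149.2 on M-on 1 and 226 on M-on 2 but 13.7 to 74.3 on the other 13 arrays, although all mice are labelled male. The Y-linked gene Eif2s3y read 0.4 and 1.3 on those 2 arrays, 42.1 on M-on 3 and 105.3 to 437.6 on the other 12, so M-on 3 stood apart as well. Results that rest on M-on are therefore also given without M-on 1 and 2 where this changed a call.

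Across the module, Bst2 fell and Lgals3bp rose with the transgene on in both lines. In Z-on minus Z-off, 3 of the 33 members were higher (9.09%), where 31.8% of all genes were, and 3 were lower (9.09%), where 7.56% of all genes were. The higher members were Lgals3bp, Mx1 and Irf8, and the lower ones Bst2, Tapbp and Ifi47. The members' median change was 0.14, beside 0.25 for all genes. After quantile normalization 2 members were higher (6.06%) and 5 lower (15.2%), where 15.8% and 10.4% of all genes were. The members' median was then -0.15, beside 0.05 for all genes.

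In M-on minus M-off, 10 of 33 members were higher (30.3%), where 38.1% of all genes were, and 3 were lower (9.09%), where 12.5% of all genes were. The higher members were Irf1, Irf7, Irf8, Usp18, Ifi35, Oasl2, Mx2, Lgals3bp, Tap1 and Tap2, and the lower ones Irf2, Bst2 and Mndal. The median change was 0.30 over the members and 0.29 over all genes. After quantile normalization 5 members were higher (15.2%) and 4 lower (12.1%), where 23.6% and 15.4% of all genes were. With M-on 3 alone kept in its group, the calls of Usp18, Irf7, Oasl2, Mx2 and Tap2 ended. Iigp1 and Cxcl9 then changed by -1.80 and -1.66. In neither line did the share of members called higher exceed that of all genes.

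**Figure D1:**
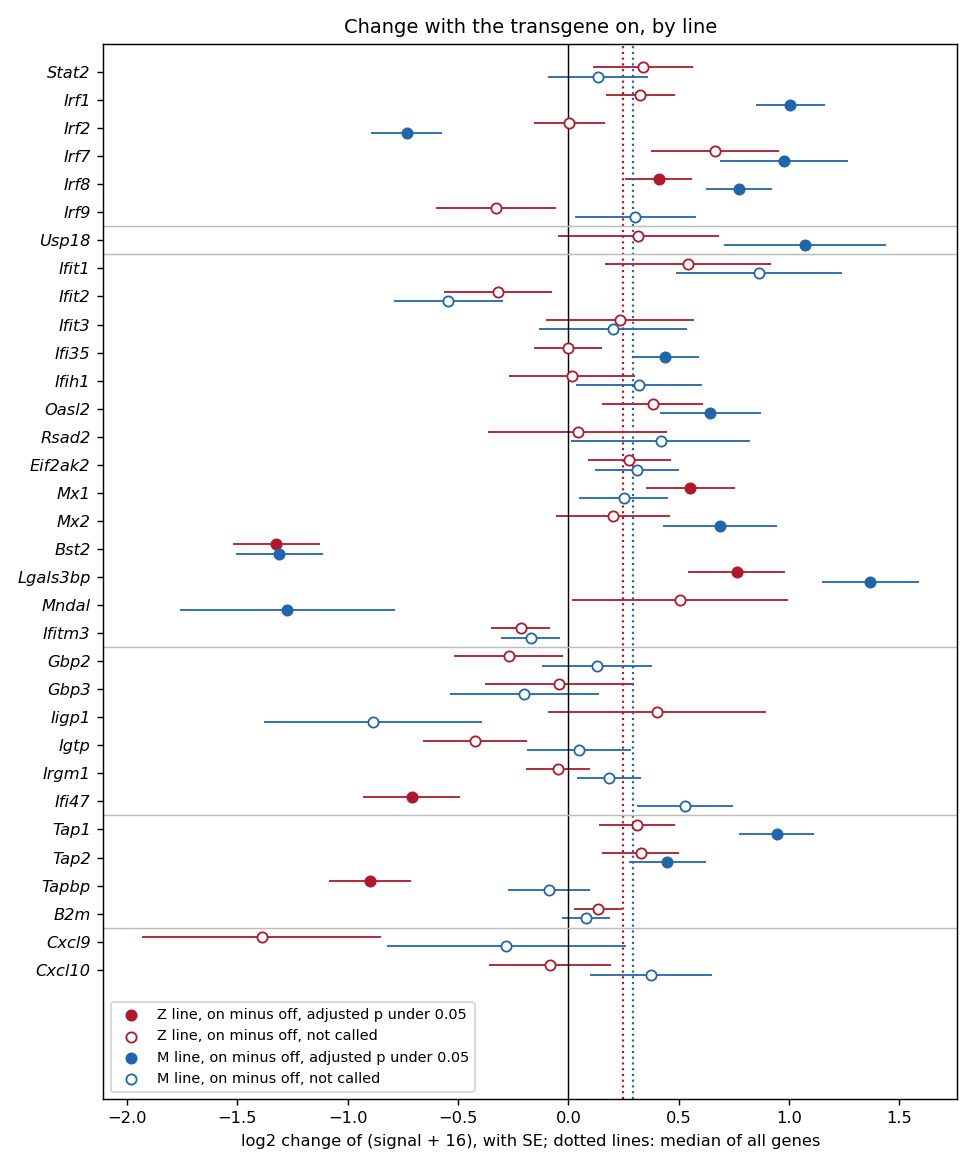
Change of each interferon-response gene with the transgene on, as the log2 change of (signal + 16) with its SE (x axis), for the Z line in red and the M line in blue, 3 arrays a group. Filled points passed an adjusted p of 0.05, open points did not, dotted lines mark the medians of all genes (0.25 and 0.29), and grey lines part the roles. Bst2 lay at -1.32 and -1.31 in the Z and M lines, and Tapbp at -0.90 in the Z line beside -0.09 in the M line.

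Among the transcription factors, Irf1, an early activator of interferon-gamma targets, read 271.7, 268.4 and 237.7 in Z-on, 202.2, 186.7 and 222.7 in Z-off, 301.8, 472 and 363 in M-on, 180.7, 178.9 and 173.4 in M-off, and 301.2, 268 and 359.4 in littermates. All 3 on arrays stood above all 3 off arrays in each line. The rise was 1.01 (SE 0.16, adjusted p = 1.57e-04) in the M line, and it was called under every alternative tried. In the Z line the change was 0.33 (SE 0.16, adjusted p = 0.116). The difference between the 2 changes was -0.68 (SE 0.22, adjusted p = 0.174).

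Irf2, which binds the same sites and is known as an antagonist of IRF1, read 46.9, 51.6 and 35.9 in M-on, 80.1, 76.7 and 97.7 in M-off, 90.6, 71.7 and 81.6 in Z-on, 71.8, 84.2 and 86.8 in Z-off, and 126.1, 86.3 and 83.5 in littermates. The 3 M-on arrays lay below the other 12. Irf2 fell by 0.73 in M-on minus M-off (SE 0.16, adjusted p = 0.00201) and by 0.90 in M-on minus littermate (SE 0.16, adjusted p = 0.00194), and both calls held under every alternative tried. In the Z line the change was 0.00 (SE 0.16, adjusted p = 0.986).

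Irf7, the amplifier of type I interferon production, read 104.8, 96.5 and 154.2 in Z-on, 110.1, 60.3 and 44.4 in Z-off, 163.5, 101.1 and 146 in M-on, 65.3, 49.9 and 67.5 in M-off, and 205.8, 101.9 and 113.8 in littermates. M-on lay wholly above M-off, while Z-on overlapped Z-off through the array Z-off 1. The rise was 0.98 in the M line (SE 0.29, adjusted p = 0.0121), with an adjusted p of 0.0565 without M-on 1 and 2. The change of 0.66 in the Z line (SE 0.29) had an adjusted p of 0.0826, and 0.020 without Z-off 1, where the change was 0.96.

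Irf8, a factor of macrophages and dendritic cells, read 48.1, 40.6 and 57.5 in Z-on, 38.7, 32.5 and 27 in Z-off, 66.4, 66.2 and 60.3 in M-on, 38.9, 29.8 and 25.3 in M-off, and 49.8, 45.9 and 62 in littermates. On arrays lay above off arrays in both lines and overlapped littermates. The rise was 0.77 in the M line (SE 0.15, adjusted p = 8.43e-04) and 0.41 in the Z line (SE 0.15, adjusted p = 0.0446). After quantile normalization neither was called, at 0.35 (adjusted p = 0.0661) and -0.045 (adjusted p = 0.850). The Z line's call also ended without any 1 of Z-on 1, Z-on 3, Z-off 2 or Z-off 3.

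A second Irf8 probe set read 38.2, 33.6 and 64.2 in Z-on, 24.8, 6.9 and 17.2 in Z-off, 70.6, 87 and 51.7 in M-on, 18.9, 8.7 and 12.2 in M-off, and 3.8, 6.8 and 2.2 in littermates. It was higher by 0.93 in the Z line and 1.54 in the M line, and it stood above littermates by 1.57 in Z-on and 2.07 in M-on (adjusted p = 0.00126 and 1.66e-04). The first probe set gave -0.08 and 0.23 in those last 2 comparisons. The 2 probe sets of Irf8 thus placed the on groups differently against littermates.

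Stat2 and Irf9, the partners of the type I interferon complex, were not called in either line with 1 probe set per gene. Stat2 changed by 0.34 (SE 0.23) in the Z line and 0.13 (SE 0.23) in the M line, and a second Stat2 probe set by 0.01 and -0.60, of which the last had an adjusted p of 0.00741. Irf9 changed by -0.33 (SE 0.27) and 0.30 (SE 0.27). Its Z-on arrays read 54.1, 41 and 113.5 against 115.7, 65.2 and 79.7 in Z-off, and without Z-on 3 the change was -0.67 (adjusted p = 0.0446).

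In the ISG15 system, Usp18, which removes ISG15 from proteins and dampens the type I receptor, read 80.5, 82.2 and 53.1 in M-on against 29.1, 15.9 and 32.9 in M-off, 38.1, 46.1 and 74.7 in Z-on against 87.2, 34.3 and 14.4 in Z-off, and 68.9, 31.4 and 49 in littermates. M-on stood above M-off, while the Z-line groups overlapped over nearly their whole range. The rise in the M line was 1.07 (SE 0.37, adjusted p = 0.0251). It was 0.65 (adjusted p = 0.151) after quantile normalization, and the call ended without M-on 1, M-on 2 or M-off 2. The change in the Z line was 0.32 (SE 0.37, adjusted p = 0.524). The probe set shared by Isg15, a ubiquitin-like modifier, and Gm9706 read 45 to 61 in Z-on, 46 to 89.4 in Z-off, 68.6 to 86.1 in M-on, 63.8 to 86.9 in M-off and 82.3 to 106.5 in littermates. It changed by -0.33 in the Z line (adjusted p = 0.191) and 0.11 in the M line (adjusted p = 0.662).

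Of the antiviral effectors and sensors, 14 were tested. In the Z line 2 rose (14.3%) and 1 fell (7.14%), where 31.8% of all genes were higher and 7.56% lower. In the M line 4 rose (28.6%) and 2 fell (14.3%), where 38.1% and 12.5% of all genes were. Bst2, which encodes tetherin, a membrane protein that holds budding virus on the cell surface, was the 1 member called in both on-off comparisons under every alternative tried. It read 232, 234.5 and 288.8 in Z-on, 883.5, 689 and 451.5 in Z-off, 265.9, 271.1 and 324.3 in M-on, 792.9, 649.3 and 764.6 in M-off, and 372.5, 336.9 and 398.2 in littermates. All 6 on arrays lay below all 3 littermates, and all 6 off arrays above them. Bst2 fell by 1.32 in the Z line (SE 0.20, adjusted p = 2.03e-04) and by 1.31 in the M line (SE 0.20, adjusted p = 1.23e-04). The changes differed by -0.01 between the lines (SE 0.28).

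Against littermates, Bst2 was higher by 0.79 in Z-off (SE 0.20, adjusted p = 0.0110) and by 0.96 in M-off (SE 0.20, adjusted p = 0.00348). The Z-off call had an adjusted p of 0.0544 without Z-off 1. The on groups were at -0.53 (adjusted p = 0.0983) in Z-on and -0.35 (adjusted p = 0.221) in M-on. These comparisons share the 3 littermates.

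Lgals3bp, a secreted galectin-binding glycoprotein, read 221, 270.2 and 279.4 in Z-on, 195, 130.6 and 116.5 in Z-off, 321.8, 359.6 and 427.2 in M-on, 131.5, 125.4 and 141 in M-off, and 123.4, 157.5 and 244.4 in littermates. On arrays exceeded off arrays in both lines, and M-on exceeded every other group. The rise was 1.37 in the M line (SE 0.22, adjusted p = 1.97e-04), called under every alternative, and 0.76 in the Z line (SE 0.22, adjusted p = 0.0138). The Z line's call ended without Z-on 3 or Z-off 3, with a highest adjusted p of 0.0607. Against littermates Lgals3bp was higher by 1.05 in M-on (SE 0.22, adjusted p = 0.00444).

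The GTPases Mx1 and Mx2 trap viral nucleocapsids, and both gave dim signals. Mx1 read 14.9, 12.2 and 19.4 in Z-on against 1.6, 12.2 and 3.7 in Z-off, 14.7, 7.9 and 11.5 in M-on against 5.1, 7.1 and 8.6 in M-off, and 12.6, 12.6 and 27.9 in littermates. It rose by 0.55 in the Z line (SE 0.20, adjusted p = 0.0417), although 1 Z-on array equalled the highest Z-off array. After quantile normalization the change was 0.22 (adjusted p = 0.474), and the call also ended without Z-on 1, Z-on 3, Z-off 1 or Z-off 3.

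Mx2 read 18.6, 13.1 and 9.3 in M-on against 2.6, 2.1 and 2.1 in M-off, 8.5, 12.9 and 28.5 in Z-on against 16.7, 8.6 and 9.8 in Z-off, and 11.2, 17.7 and 40.8 in littermates. The M-off arrays were the 3 that read below 3 units. Mx2 rose by 0.69 in the M line (SE 0.26, adjusted p = 0.0383), but not after quantile normalization (0.42, adjusted p = 0.179). That call ended without M-on 1, M-on 2 or any 1 M-off array. In M-off minus littermate Mx2 fell by 1.03 (SE 0.26, adjusted p = 0.0101), under every alternative tried.

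Oasl2, a 2′-5′-oligoadenylate synthetase-like protein, read 35.9, 27.8 and 26.1 in M-on against 12.4, 13.9 and 13.6 in M-off, 10.8, 17.3 and 37.4 in Z-on against 21.9, 8.9 and 6.8 in Z-off, and 25.1, 22.9 and 19.4 in littermates. M-on stood above M-off and above littermates, while the Z-line groups overlapped. Its rise in the M line was 0.64 (SE 0.23, adjusted p = 0.0307) and was 0.11 after quantile normalization (adjusted p = 0.720). The call ended without M-on 1, M-on 2 or any 1 M-off array.

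Ifi35, an interferon-induced leucine zipper protein, read 173.4, 189.5 and 237.6 in M-on against 132.2, 150.7 and 144.3 in M-off, 108.5, 156.2 and 122.3 in Z-on against 126, 132.6 and 125.1 in Z-off, and 136.5, 175.9 and 174.6 in littermates. M-on lay above both M-off and Z-on without overlap. The rise in the M line was 0.44 (SE 0.15, adjusted p = 0.0274) and the change in the Z line was 0.00 (SE 0.15, adjusted p = 0.993). The M-line value after quantile normalization was 0.36 (adjusted p = 0.0950), and the call ended without M-on 3, M-off 1 or M-off 3.

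Mndal, a nuclear DNA-binding protein of the p200 family, was dim in the Z line. It read 22.1, 8 and 1.4 in Z-on, 4.3, 0.8 and 0.3 in Z-off, 84.7, 11.6 and 11.6 in M-on, 83.5, 75.7 and 102.7 in M-off, and 170.8, 40.1 and 55.4 in littermates. All 6 Z-line arrays were below every M-off and littermate array, and M-on 2 and M-on 3 fell among the Z-line arrays. Against littermates Mndal was lower in Z-off, at -2.36 (SE 0.49, adjusted p = 0.00419), and at -1.85 in Z-on (SE 0.49, adjusted p = 0.0243). The first of these held under every alternative tried, and the second ended without Z-on 2, Z-on 3 or littermate 1.

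In M-on minus M-off Mndal fell by 1.27 (SE 0.49, adjusted p = 0.0428). With only M-on 1 kept in that group the change was -0.028 (adjusted p = 0.973), and the call also ended without M-on 2, M-on 3 or any 1 M-off array. The probe set used carries the suffix that marks probes able to bind other transcripts. A second probe set of Mndal gave -1.06 (adjusted p = 0.0751).

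Ifit1, Ifit2 and Ifit3 bind foreign RNA at ribosomes. None was called in the on-off comparisons. Ifit1 read 107.5, 45.3 and 51.1 in M-on against 27.5, 27.7 and 28.4 in M-off, a change of 0.86 without overlap (SE 0.38, adjusted p = 0.0694). In the Z line Ifit1 read 44.5, 57.7 and 95 in Z-on against 92.2, 26.8 and 18.7 in Z-off, a change of 0.54 (SE 0.38). Without Z-off 1 that change was 1.04 (adjusted p = 0.0217). Ifit2 was dim on all arrays, from 1.7 to 20, and changed by -0.32 and -0.54 in the Z and M lines. The latter was called after quantile normalization (-0.88, adjusted p = 0.0125), with a constant of 1 (-1.79, adjusted p = 0.0448) and with only the compared groups in the fit (adjusted p = 0.0246). Ifit3 changed by 0.23 and 0.20.

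The remaining effectors did not pass the test in either on-off comparison. Ifih1, the cytosolic sensor MDA5, changed by 0.02 in the Z line and 0.32 in the M line, with M-on 1 at 309.4 and the other 2 M-on arrays at 130.2 and 132.6. Rsad2, or viperin, changed by 0.04 and 0.42, and another of its 3 probe sets rose by 0.96 in the M line (adjusted p = 0.00331). Eif2ak2, the kinase PKR, changed by 0.28 and 0.31. Ifitm3, which blocks viral entry at endosomes, read 1910.5, 2280.5 and 1979.5 in Z-on and 3254.5, 3007.3 and 2923.7 in littermates, and fell by 0.57 between them (SE 0.13, adjusted p = 0.0130). After quantile normalization that difference was -0.30 (adjusted p = 0.174).

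**Figure D2:**
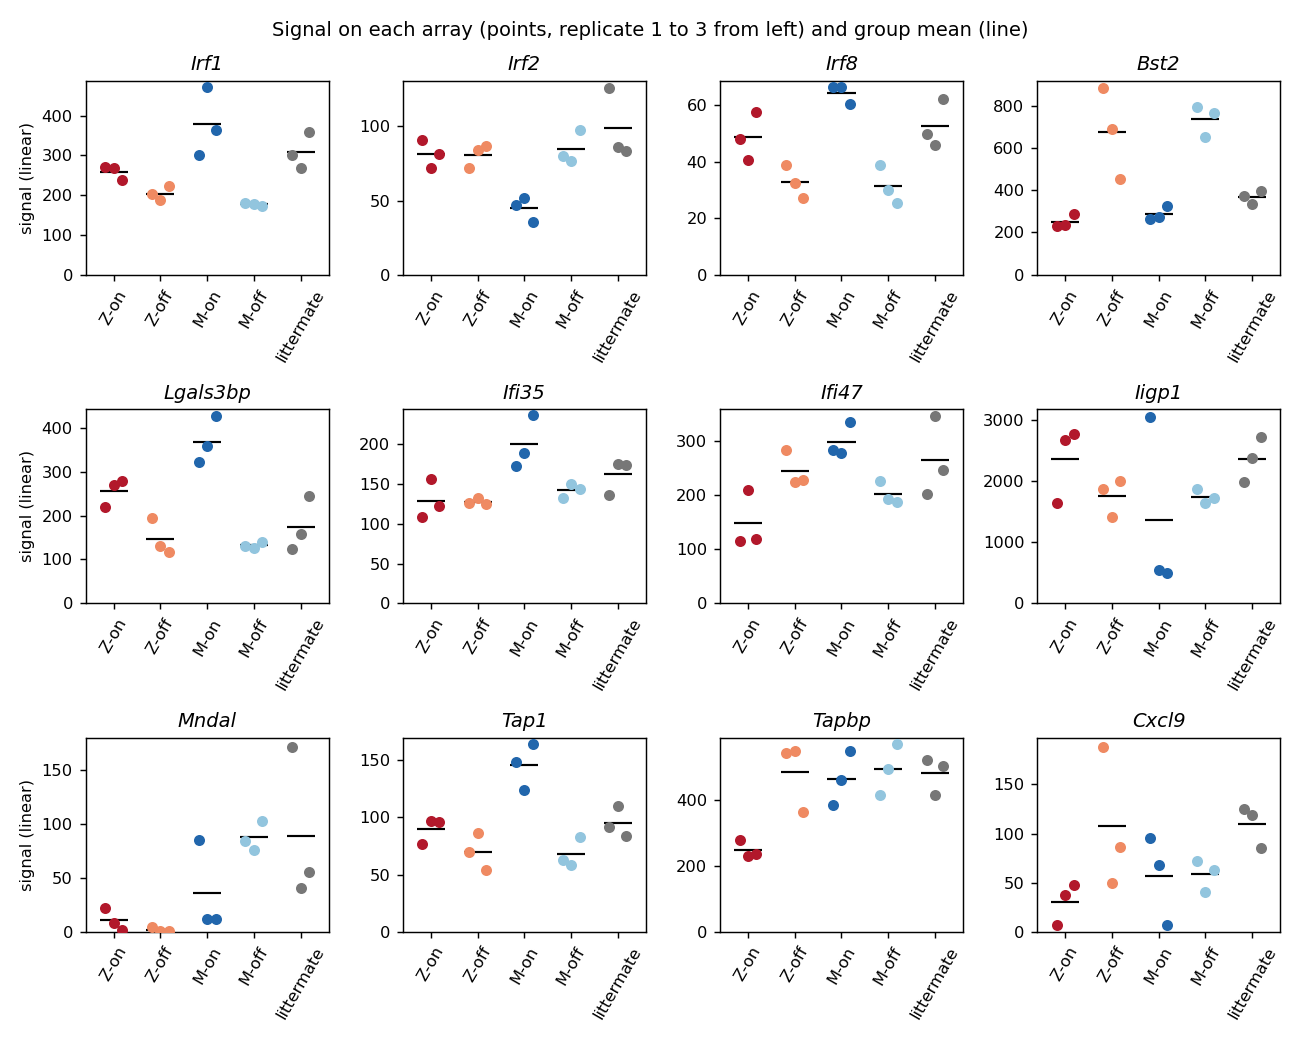
Deposited signal (y axis, linear, from 0) of 12 interferon-response genes on each array, as points in the order of replicates 1 to 3, with the mean of each group of 3 as a line. Bst2 was lower on the on arrays of both lines (232 to 324.3) than on the off arrays (451.5 to 883.5), Tapbp was low only in Z-on (229.5 to 279.3), and Iigp1 was low on M-on 2 and M-on 3 (539.3 and 489.8).

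The interferon-inducible GTPases guard vacuoles and membranes against intracellular pathogens. Of the 6 tested, only Ifi47 was called in an on-off comparison (16.7% lower in the Z line, beside 7.56% of all genes). It read 114.6, 209.8 and 119.7 in Z-on, 283.3, 223.9 and 228.3 in Z-off, 284, 278.5 and 336.3 in M-on, 225.8, 193.9 and 187.8 in M-off, and 202.6, 347.4 and 246.7 in littermates. Each Z-on array was below each Z-off array, and each M-on array was above each M-off array. Ifi47 fell by 0.71 in the Z line (SE 0.22, adjusted p = 0.0192), and the call ended without Z-on 1, Z-on 3 or Z-off 1, with a highest adjusted p of 0.0819. In the M line the change was 0.53 (SE 0.22, adjusted p = 0.0564).

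Iigp1 read 1642.1, 2668.8 and 2776.9 in Z-on, 1869.5, 1410.9 and 1995.2 in Z-off, 3045.3, 539.3 and 489.8 in M-on, 1868, 1638.1 and 1726.7 in M-off, and 1993.1, 2382.3 and 2716.4 in littermates. M-on 1 was the highest of all 15 arrays and the other 2 M-on arrays were the lowest. A second Iigp1 probe set read 832.9, 109.7 and 110.5 in M-on and 366.3 to 1119.5 elsewhere. The change in the M line was -0.89 over 3 arrays (SE 0.49, adjusted p = 0.149), -1.73 without M-on 1 (adjusted p = 5.49e-05) and 0.80 with M-on 1 alone (adjusted p = 0.0495). The direction for Iigp1 in the M line therefore depends on which M-on arrays are kept.

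Gbp2, Gbp3, Igtp and Irgm1 were not called in either on-off comparison. Gbp2 changed by -0.27 and 0.13 in the Z and M lines, Gbp3 by -0.04 and -0.20, Igtp by -0.42 and 0.05, and Irgm1 by -0.05 and 0.18. After quantile normalization Gbp2 was lower in the Z line, at -0.71 (adjusted p = 0.0341). Igtp read 344.3, 390.2 and 424.5 in Z-on, below 578.7, 746.5 and 591.9 in littermates, with a difference of -0.70 (SE 0.23, adjusted p = 0.0679). Irgm1 was higher by 0.48 in M-on than in littermates (SE 0.14, adjusted p = 0.0280), a call that ended without any 1 M-on array, without littermate 1 or 2, and after quantile normalization (0.43, adjusted p = 0.0503).

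The MHC class I loading complex moves peptides through TAP1 and TAP2 into the endoplasmic reticulum, where tapasin (Tapbp) links the transporter to class I molecules carrying beta-2-microglobulin (B2m). Tapbp read 279.3, 229.5 and 237.1 in Z-on, 542, 547.8 and 362.6 in Z-off, 383.9, 460.6 and 548.6 in M-on, 414.2, 495.9 and 571.6 in M-off, and 522.8, 416.9 and 502.8 in littermates. The 3 Z-on arrays were below the other 12, which overlapped one another. Tapbp fell by 0.90 in the Z line with the transgene on (SE 0.19, adjusted p = 0.00191) and by 0.91 in Z-on minus littermate (SE 0.19, adjusted p = 0.00690), and both calls held under every alternative tried. In the M line the change was -0.09 (SE 0.19, adjusted p = 0.717), and the difference between the lines was -0.81 (SE 0.26, adjusted p = 0.173).

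A second Tapbp probe set read 102.3, 54.1 and 102.5 in Z-on, 140.1, 141.8 and 119.8 in Z-off, and 173.2, 195.7 and 198.1 in M-on. It was also lower in Z-on, at -0.59 against Z-off (adjusted p = 0.0290) and -1.04 against M-on (adjusted p = 0.0156). Littermates read 134, 110.2 and 95.3 on this probe set and overlapped Z-on, so the fall from littermates given above rests on the first probe set. The second placed M-on higher than littermates by 0.68 (adjusted p = 0.0229), where the first gave -0.06. M-off read 136.4, 158.8 and 119.1 on the second, below every M-on array, while M-on and M-off overlapped on the first.

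Tap1 read 148.6, 124.1 and 164.1 in M-on, 63.1, 58.5 and 83 in M-off, 76.8, 96.5 and 95.8 in Z-on, 70, 86 and 53.6 in Z-off, and 92.1, 109.8 and 83.5 in littermates. M-on lay above the other 12 arrays. The rise was 0.94 in the M line (SE 0.17, adjusted p = 4.92e-04), called under every alternative, beside 0.31 in the Z line (SE 0.17, adjusted p = 0.165). Over the 4 Tap1 probe sets the M-line changes were 0.94, 0.66, 0.59 and -0.06. Against littermates Tap1 was higher by 0.54 in M-on (SE 0.17, adjusted p = 0.0346), a call that ended without M-on 1, M-on 3, littermate 1 or littermate 3, and after quantile normalization (0.48, adjusted p = 0.0573).

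Tap2 read 98.9, 78.4 and 95.6 in M-on against 62.3, 68.6 and 55.9 in M-off, 84.5, 70.7 and 68.3 in Z-on against 55.2, 41.8 and 74.3 in Z-off, and 72.7, 109.9 and 88.4 in littermates. M-on and M-off did not overlap. The rise in the M line was 0.45 (SE 0.17, adjusted p = 0.0450), which ended without M-on 1, M-on 3 or any 1 M-off array and was 0.20 after quantile normalization (adjusted p = 0.376).

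B2m was bright and separated the littermates from all transgenic mice. It read 8140.3, 7682.9 and 8261.9 in littermates, 5796.6 to 5887.7 in Z-on, 5048 to 5714.9 in Z-off, 5383.5 to 6006 in M-on and 5083.4 to 5800.7 in M-off. The differences from littermates were -0.46 for Z-on, -0.48 for M-on, -0.59 for Z-off and -0.56 for M-off, with adjusted p of 0.0143, 0.00674, 0.00206 and 0.00244. After quantile normalization the on groups were at 0.165 and 0.086 and the off groups at -0.33 and -0.28, of which only Z-off was called (adjusted p = 0.0442). Between on and off arrays the 2 B2m probe sets disagreed: the first changed by 0.14 and 0.08, the second by -0.60 and -0.58 (adjusted p = 0.00303 and 0.00257). After quantile normalization the first was called higher in both lines, at 0.49 (adjusted p = 0.00298) and 0.37 (adjusted p = 0.00889).

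Neither chemokine passed the test in the on-off comparisons. Cxcl9, an interferon-gamma target that draws T cells, read 6.5, 37.5 and 47.3 in Z-on, 188.2, 49.4 and 86.7 in Z-off, 95.2, 68.4 and 7.2 in M-on, 71.5, 40.4 and 63.1 in M-off, and 125.2, 119 and 85.2 in littermates. The Z-on arrays lay below both Z-off and littermates. The changes were -1.39 in the Z line (SE 0.54, adjusted p = 0.0556) and -0.28 in the M line (SE 0.54), and after quantile normalization the former was -1.69 (adjusted p = 0.0245). Cxcl10 read 13 to 48.8 over all arrays and changed by -0.08 and 0.37.

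With both proteins expressed, Z-on and M-on differed in 4 members: 1 was higher in Z-on, where 3.68% of all genes were, and 3 were lower (9.09%), where 1.48% of all genes were. Irf2 was higher in Z-on by 0.68 (SE 0.16, adjusted p = 0.0293). Tapbp was lower at -0.85 (SE 0.19, adjusted p = 0.0245), Ifi47 at -0.99 (SE 0.22, adjusted p = 0.0248) and Ifi35 at -0.58 (SE 0.15, adjusted p = 0.0442). Picked by this same call, none of these 4 genes overlapped between the 6 arrays. That is no separate support and was not counted over all genes. The members' median was -0.20 and that of all genes -0.03, and 10 of the 33 members lay above the median of all genes. A negative difference was seen for 24 of the 33 members, and such differences were not counted over all genes.

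These 4 calls were sensitive to single arrays. With M-on 3 alone kept in its group, Iigp1 was higher in Z-on by 2.20. No member was called without Z-on 3, without M-on 2 or without M-on 3, 1 was called without Z-on 1, 2 without Z-on 2, and 7 without M-on 1. In the last, 2 members were higher (6.06%) and 5 lower (15.2%), where 9.09% and 4.33% of all genes were. Without any other 1 of these arrays, at most 1.04% of all genes were higher and at most 0.863% lower. With M-on 1 left out, Iigp1 was higher in Z-on by 2.13 (adjusted p = 2.24e-05) and Irf1 lower at -0.65 (adjusted p = 0.0119). Tap1 missed the threshold, at -0.61 (SE 0.17, adjusted p = 0.0554), and was called after quantile normalization, at -0.72 (adjusted p = 0.0259).

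The on-off change of the 2 lines was also compared directly. No member was called in this interaction, where 0.307% of all genes were higher and 0.307% lower. At an unadjusted p under 0.05, where all genes were not counted, 2 members were higher and 4 lower. Of those 6, Ifi47 at -1.24 (SE 0.31, adjusted p = 0.0911) and Irf2 at 0.74 (SE 0.23, adjusted p = 0.158) had the smallest p. Without M-on 1, 2 members were called higher (6.06%) and 3 lower (9.09%), where 6.30% and 1.94% of all genes were. These 5 were Iigp1 at 2.13, Mndal at 2.40, Irf1 at -0.83, Ifi47 at -1.27 and Tapbp at -0.94. Their adjusted p were 5.64e-04, 0.0167, 0.0236, 0.0326 and 0.0472. With M-on 3 alone kept in its group, the calls of Mndal, Irf1, Ifi47 and Tapbp ended, and Iigp1 was at 2.20.

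Against littermates, Z-on had no member called higher, where 7.55% of all genes were, and 5 called lower (15.2%), where 4.74% of all genes were. At an unadjusted p under 0.05 these counts were 1 and 8, and the share of all genes at that threshold was not counted. The lower members were Tapbp, Mndal, Ifitm3, B2m and Ifi47, the last at -0.79 (SE 0.22, adjusted p = 0.0289), a call that ended without Z-on 1, Z-on 3, littermate 2 or littermate 3. The members' median was -0.22, beside 0.06 for all genes. In the same comparison 4 of 10 Kupffer cell and macrophage markers and 6 of 7 hepatocyte markers were lower, and after quantile normalization 4 and 0, and the part of these cells in the result was not tested. M-on had 3 members higher (9.09%), where 14.6% of all genes were, namely Lgals3bp, Irgm1 and Tap1, and 2 lower (6.06%), where 9.48% of all genes were, namely Irf2 and B2m. Its median was -0.06, beside 0.08 for all genes, and 6 of 7 hepatocyte markers were lower (0 after quantile normalization). Without M-on 3 or without littermate 1, 3 members were called instead of 5. Without M-on 1 and 2 together B2m, Irgm1 and Tap1 were no longer called, and Iigp1 (-2.22) and Cxcl9 (-2.42) were lower.

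The off groups were compared with littermates in the same way. In Z-off minus littermate 1 member was higher, Bst2, where 4.09% of all genes were, and 7 were lower (21.2%), where 20.3% of all genes were: Mndal, B2m, Irf1, Irf7, Irf8, Mx1 and Tap2. In M-off minus littermate 1 was higher, again Bst2, where 3.99% of all genes were, and 6 were lower (18.2%), where 22.4% of all genes were: B2m, Irf1, Irf7, Irf8, Eif2ak2 and Mx2. Irf1 was at -0.56 in Z-off (SE 0.16, adjusted p = 0.0195) and -0.74 in M-off (SE 0.16, adjusted p = 0.00413), the latter under every alternative. The members' medians were -0.35 and -0.39, beside -0.19 for all genes in each. Of 7 hepatocyte markers 5 were lower in each off group (0 after quantile normalization), and of 10 Kupffer cell and macrophage markers 1 was lower in Z-off and 4 in M-off (1 in each after quantile normalization). After quantile normalization 2 members were higher and 3 lower in Z-off, and 2 were higher and 2 lower in M-off, the higher ones being Bst2 and Ifit2. Of all genes, 4.84% were then higher and 8.07% lower in Z-off, and 4.52% and 8.51% in M-off. Without Z-off 2 the Z-off count was 4, where 2.41% of all genes were higher and 14.6% lower. Without littermate 3 it was 3, where 3.07% and 15.6% of all genes were. Without M-off 2 the M-off count was 4, where 2.40% and 16.4% of all genes were.

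Between the off groups no member was called, where 0.0807% of all genes were higher in Z-off and 0.0484% lower. At an unadjusted p under 0.05, 1 member was higher and 2 were lower, with no count over all genes at that threshold. The largest difference was that of Mndal, at -2.54 (SE 0.49, adjusted p = 0.0731), and Mndal was called when dim genes were left out (adjusted p = 0.0409).

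Ordered by group mean, littermates were the highest of the 5 groups for 15 members, M-on for 12, Z-off and M-off for 3 each, and Z-on for none. M-off was the lowest for 13, Z-on and Z-off for 7 each, M-on for 4 and littermates for 2. In 28 of 33 members the on and off arrays overlapped in at least 1 of the 2 lines. Neither the orders nor the overlaps were counted over all genes, so these counts describe the members without a comparison.

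**Figure D3:**
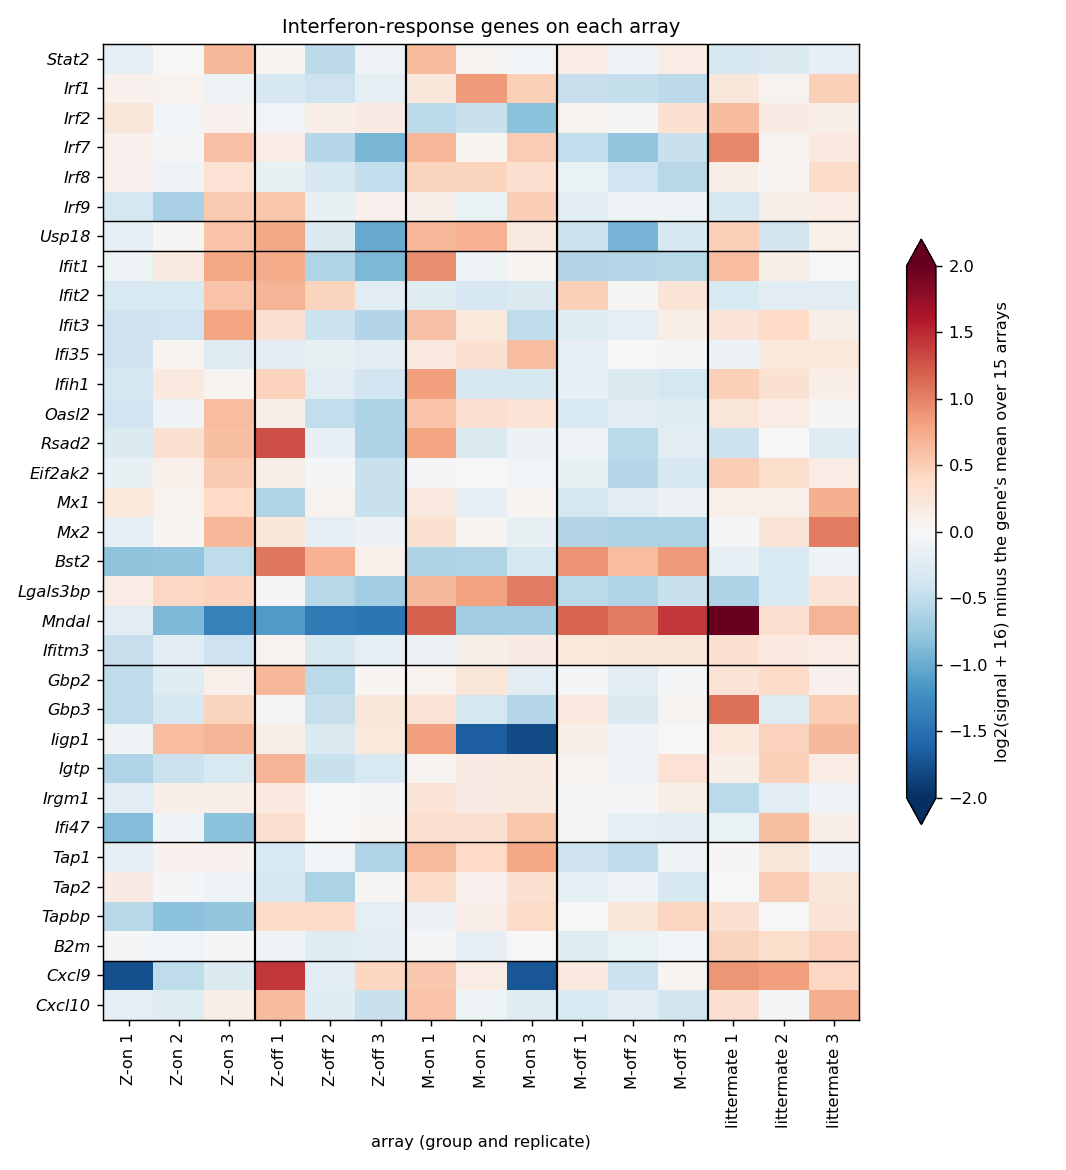
Interferon-response genes (rows, by role) on the 15 arrays (columns, by group), coloured by log2(signal + 16) minus the gene's mean over 15 arrays, red above and blue below, with the scale ending at 2. Bst2 was blue on all 6 on arrays and red on the off arrays, Mndal was blue on the 6 Z-line arrays and on M-on 2 and 3, and Z-off 1 was redder than Z-off 2 and 3 in most rows.

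Within groups, members tended to be high on the same arrays. Z-off 1 was the highest of its 3 arrays for 24 of 33 members (72.7%), against 31.5% of all genes. Among them Rsad2 read 176.6 on Z-off 1 and 54.7 and 35.2 on the others, and Igtp 860 against 386.8 and 424.9. Z-on 3 was the highest of its group for 22 members (66.7%, against 40.0% of all genes), and Oasl2 read 37.4 there against 10.8 and 17.3. M-on 1 was the highest for 18 (54.5%, against 42.4%). These shares describe the arrays and were not tested.

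**Figure D4:**
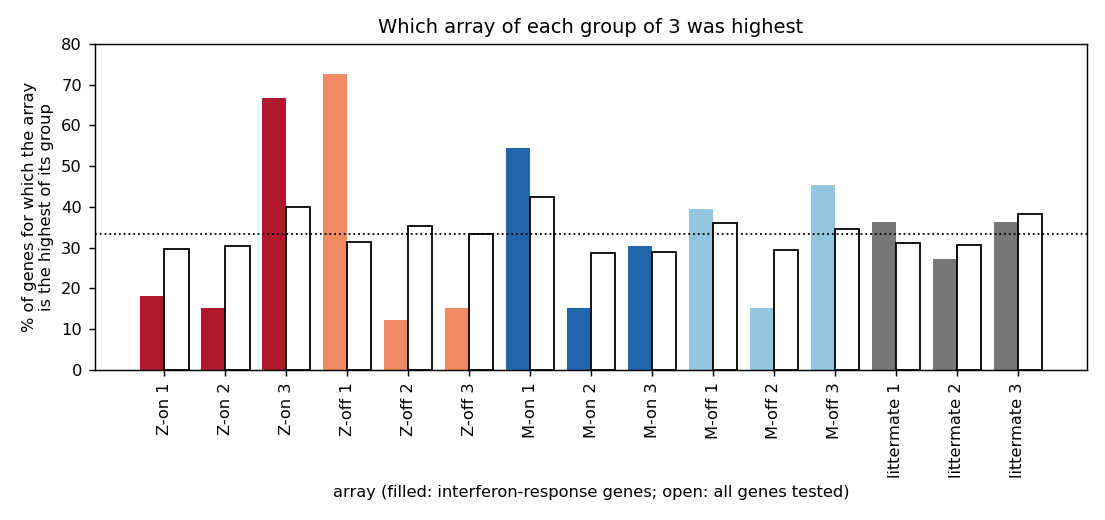
Percent of genes (y axis) for which an array (x axis) was the highest of its group of 3, with filled bars for the 33 interferon-response genes, coloured by group, and open bars for all genes tested. The dotted line is an even share among 3 arrays. Z-off 1 reached 72.7% of the members and 31.5% of all genes, and Z-on 3 reached 66.7% and 40.0%.

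Other genes of the pathway were counted from fixed lists, as higher and lower in Z-on minus Z-off and then in M-on minus M-off. They stand beside the 31.8% and 38.1% of all genes that were higher in these comparisons, or 15.8% and 23.6% after quantile normalization. The shares of all genes that were lower were 7.56% and 12.5%, or 10.4% and 15.4% after quantile normalization. Of 10 interferon ligands, 4 were higher (40%) and 0 lower in each line, among them Ifnb1 at 1.38 and 1.40 and Ifna1 at 0.66 and 1.94. Their summed signal was only 53.9 to 119.6 on off arrays and 194.5 to 287.5 on on arrays, and 2 were called higher in each line after quantile normalization, when Ifna1 in the Z line was at 0.20 (adjusted p = 0.589). Of 19 receptors and signalling genes, 7 were higher and 2 lower in the Z line and 10 and 1 in the M line, with the receptor kinase Tyk2 at 0.83 and 1.04. The type I receptor subunit Ifnar2 fell by 0.56 in the Z line (adjusted p = 0.00300). After quantile normalization the counts were 1 and 2 in the Z line and 2 and 2 in the M line.

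Of 16 nucleic acid sensing genes, 5 were higher and 2 lower in the Z line and 4 and 3 in the M line (3 and 4, and 2 and 5, after quantile normalization). Mavs, the mitochondrial adaptor of RNA sensors, fell, at -1.43 and -1.53, and Dhx58, a regulator of those sensors, rose by 1.30 and 1.47, and these changes were called after quantile normalization as well. Of 42 other interferon-stimulated genes, 15 were higher and 4 lower in the Z line and 17 and 5 in the M line, and after quantile normalization 6 and 8, and 10 and 6. Epsti1 rose by 0.98 and 1.01, Oasl1 by 1.67 in the Z line and Trim30a by 1.80 in the M line. Of 11 genes for MHC class I heavy chains and peptide supply, 0 were higher and 3 lower in the Z line and 1 and 2 in the M line. The chaperone Canx fell, at -1.19 and -1.07, as did the disulphide isomerase Pdia3, at -1.23 and -1.58, and in the Z line the heavy chain H2-K1, at -0.43 (adjusted p = 0.0220). After quantile normalization 0 were higher and 2 lower in the Z line and 1 and 2 in the M line, and H2-K1 was at -0.24 (adjusted p = 0.190).

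Markers of other cells moved with some of these results. Of 10 Kupffer cell and macrophage markers, 6 were higher in M-on than in M-off and 0 lower, with a summed signal of 3145.1 to 3674 against 1934.4 to 2009.7. In the Z line 0 were higher and 2 lower, with sums of 1425.5 to 1834.7 in Z-on and 1482.4 to 2454.3 in Z-off. Further, 4 were lower in Z-on than in M-on, where 1.48% of all genes were. After quantile normalization the first count was 5 and the last 6, where 23.6% and 2.28% of all genes were. Littermates summed to 2267.2 to 3690. The members higher in M-on and those lower in Z-on than in M-on lay beside macrophage markers that differed the same way, and the part of these cells in the result was not tested.

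Lymphoid and dendritic markers were dim, and their counts, too, stand beside the 31.8% and 38.1% of all genes that were higher. Of 7 natural killer cell markers 5 were higher in each line, of 8 T cell markers 3 and 4, of 5 B and plasma cell markers 3 and 3, and of 5 dendritic cell markers 4 and 4, in the Z and M lines and with none lower. After quantile normalization these counts were 1 and 4, 1 and 0, 0 and 3, and 1 and 3. The natural killer markers summed to 33.8 to 63.4 on off arrays, 185.9 to 273.9 on on arrays and 164.7 to 213.6 in littermates. Of 5 neutrophil markers 2 were higher in each line, of 6 endothelial markers 1 and 3, and of 6 stellate cell markers 3 and 2. Of 4 cholangiocyte markers 0 and 1 were lower. No hepatocyte marker of 7 was called in either line, and these markers, abundant on every array, summed to 43248.6 to 56298.7 in transgenic mice and 74632.5 to 89436.7 in littermates. The part of any of these cells in the members' changes was not tested.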

How the data were processed

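Liver RNA was hybridised to 15 single-colour expression arrays, 3 per group. The deposited values were treated as intensity on a linear scale: they ran from 0 to 22995.4 and the 2% trimmed mean lay between 150.063 and 150.08 on every array, so they were already scaled. The submitters' processing notes name RMA, but these values are not on its log2 scale, and the sources used here do not state which tool made them. Of 22690 probe sets, 64 were controls, 20380 had 1 gene, 691 several and 1555 none, and 20351 symbols matched RefSeq. The probe set with the highest mean signal stood for each of 12393 genes.

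A constant of 16 was added before log2, and 9 contrasts of the 5 groups were fitted in limma 3.58.1 (R 4.3.3) with 10 residual degrees of freedom and no covariate, with Benjamini-Hochberg adjustment over all genes. The number of arrays limits the precision. On simulated data of 12393 genes the Z-on minus Z-off fit recovered 22.4%, 77.6% and 97.0% of genes changed by 0.585, 1 and 2. The interaction recovered 4.48%, 44.8% and 93.9% of them. Only 67, 67 and 66 genes were changed at these sizes, where 31.8% of genes were called higher and 7.56% lower in the data. The adjusted threshold therefore differs, and these percentages do not give the recovery in the data. The members and the lists were chosen with earlier results of these data known. Members called in an on-off contrast, in Z-on minus M-on or in the interaction were named with all values, and up to 4 called genes of each other list. Alternatives were quantile normalization, constants of 1 and 64, no genes at or below the 40th percentile, fits on the compared groups alone, all probe sets, a replicate block, and leaving out arrays. With all probe sets, the 1 with the smallest adjusted p stood for each member. A further probe set that was not called could therefore not end a call. Replicate numbers did not pair the samples. Figures used matplotlib 3.10.9.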

Additional observations from a re-analysis of the deposited data

Results flagged for a closer look

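Ifi47 was the 1 interferon-response gene whose on-off change ran in opposite directions in the 2 lines on every array. Each Z-on array (114.6, 209.8 and 119.7) was below each Z-off array (223.9 to 283.3), and each M-on array (278.5 to 336.3) was above each M-off array (187.8 to 225.8). The difference between the changes was -1.24 (SE 0.31), with an unadjusted p of 0.00127 and an adjusted p of 0.0911 in limma. In groups of 3 no single array was tested as an outlier.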

How the results depend on the processing

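Counts of called members moved as follows. Brackets give the shares of all genes called higher and lower in the same setting. After quantile normalization 2 were called in M-on minus littermate (11.4% and 9.74%). There were 5 in Z-off minus littermate (4.84% and 8.07%) and 4 in M-off minus littermate (4.52% and 8.51%). With a constant of 1 the counts were 0 in Z-on minus M-on (0.629% and 0.395%) and 1 in Z-off minus M-off (0.153% and 0.0646%). They were 3 in Z-on minus littermate (4.62% and 3.47%) and 3 in M-on minus littermate (9.38% and 7.60%). With only the compared groups in the fit they were 0 in Z-on minus M-on, 3 in Z-on minus littermate, 1 in M-on minus littermate, 1 in Z-off minus M-off, 3 in Z-off minus littermate and 12 in M-off minus littermate. All probe sets gave 8 in Z-on minus littermate and 9 in M-on minus littermate, and leaving out dim genes gave 1 in Z-off minus M-off. With M-on 1 alone kept in its group, the calls in Z-on minus M-on ended. Those of Lgals3bp, B2m, Irgm1 and Tap1 ended in M-on minus littermate. Fits that kept 1 M-on array are not counted here. Leaving out 1 array at a time gave 3 to 6 for the Z line on against off and 8 to 10 for the M line. Of all genes, 25.2% to 27.8% and 33.1% to 36.1% were then higher. In Z-on minus M-on it gave 0 to 7, where 0.29% to 9.09% of all genes were higher and 0.315% to 4.33% lower. Against littermates it gave 3 to 5 for Z-on and for M-on, 3 to 7 for Z-off and 4 to 7 for M-off. The shares of all genes called lower were then 3.16% to 3.91%, 6.03% to 11.8%, 14.1% to 17.9% and 16.4% to 19.8%, in that order. Z-off minus M-off gave 0 and the interaction 0 to 5, where up to 6.30% of all genes were higher and 1.94% lower. Among called members, quantile normalization turned the sign of Irf8 for Z-on against Z-off (-0.045) and of B2m in Z-on (0.165) and M-on (0.0857) minus littermate. The cause was not tested.

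Same-numbered arrays of different groups had correlated deviations of -0.171 to 0.0662 (median -0.0135, 30 pairs, 0 above 0.1), and 2 of 15 arrays correlated best with their own number. With the replicate block 6 members were called in the Z line on against off, where 30.8% of all genes were higher and 7.14% lower. The M line had 12, where 37.2% and 12.1% were. Z-on minus M-on had 4, where 2.71% and 1.06% were, and Z-off minus M-off 1, where 0.0565% and 0.0403% were. A median signal of 30.4 to 54.9 leaves dim genes such as Ifit2 and Mx1 close to the constant of 16, where changes are compressed.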
